A study of Rattus norvegicus with 6 samples.

Results

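The miR-23, miR-27 and miR-24 miRNAs were followed in the hypothalamic arcuate nucleus (ARC) of rats on Day 14 after nerve injury. They come from 6 hairpins in 2 genomic clusters, 23a/27a/24-2 and 23b/27b/24-1. Members were chosen by name: the rows for miR-23a-3p, miR-23a-5p, miR-23b-3p, miR-24-3p, miR-24-1-5p, miR-24-2-5p, miR-27a-3p, miR-27a-5p, miR-27b-3p and miR-27b-5p. All 10 were among the 562 mature miRNAs listed for each library, and miR-23b-5p, the remaining arm of these hairpins, is given beside them. The tissue came from Sprague-Dawley rats of 8 to 10 weeks, which the study's methods give as male unless stated otherwise. In the CCI-ION group (n = 3 libraries) a chronic constriction injury was made with loose silk ligatures around the left infraorbital nerve. In the sham group (n = 3 libraries) the nerve was exposed on 1 side and left unligated. The study's legends give more rats than libraries in a group, and how rats were assigned to libraries is not stated in the sources used here, so p-values measure the spread between libraries, which may in part be technical.

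A miRNA hairpin is cut from a longer transcript by Drosha and then by Dicer into a duplex, of which 1 arm (5p or 3p) usually stays in an Argonaute complex and the other is mostly lost. The loaded strand pairs with target mRNAs mainly through its seed near the 5′ end, so miRNAs that share a seed are predicted to share many targets. The miR-23, miR-27 and miR-24 hairpins of a cluster are transcribed together, and duplicated clusters of this kind are found throughout vertebrates. They are well known from blood vessels, where they act in angiogenesis. miR-27 is also known from the control of adipocyte differentiation and lipid genes, miR-24 from the cell cycle and miR-23 from the control of glutaminase.

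By name, 10 of the 11 listed arms had a mature sequence in RefSeq (GRCr8 build); miR-23a-5p had none. The 23a/27a/24-2 cluster lies on chromosome 19 of that build (chr19:40859455-40859843, minus strand), between the genes Zswim4 and Nanos3. The 23b/27b/24-1 cluster lies on chromosome 17 (chr17:1818669-1819482, minus strand), within the bounds of the aminopeptidase gene Aopep. Whether these bounds place it in an intron was not analysed here. The 3p arms are shown first, with the seed (bases 2 to 8) in capitals, because they carry most reads of their hairpins and because the copies of each pair are nearly identical.

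miR-23a-3p: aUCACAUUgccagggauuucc
miR-23b-3p: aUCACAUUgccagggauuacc
miR-27a-3p: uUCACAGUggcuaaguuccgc
miR-27b-3p: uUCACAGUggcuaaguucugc
miR-24-3p: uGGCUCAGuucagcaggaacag

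Both miR-23 copies have the seed UCACAUU and both miR-27 copies the seed UCACAGU. Counted from the 5′ end, miR-23a-3p and miR-23b-3p differ by U19A alone, with the miR-23a base first. Likewise miR-27a-3p and miR-27b-3p differ by C19U alone, with the miR-27a base first. The first 18 bases of each pair are therefore the same, and a read that ends before base 19 holds nothing that separates the copies. How such reads were counted is not given in the sources used here, so the split between the a and b copies of a 3p arm is uncertain. miR-24-3p is the same in both clusters and cannot be assigned to either. The 5p arms of miR-24 do differ between the loci, and they are shown because they are what tells the 2 miR-24 hairpins apart.

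miR-24-1-5p: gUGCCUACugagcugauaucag
miR-24-2-5p: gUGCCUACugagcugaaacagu

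They share the seed UGCCUAC and their first 16 bases, and the remaining bases hold the differences U17A, U19C, C20A, A21G and G22U, with the miR-24-1 base first. The whole hairpins show the same arrangement, with both mature arms in capitals and the loop between them in lower case.

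Mir24-1: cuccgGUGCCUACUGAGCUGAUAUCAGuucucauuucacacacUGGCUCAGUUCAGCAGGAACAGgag
Mir24-2: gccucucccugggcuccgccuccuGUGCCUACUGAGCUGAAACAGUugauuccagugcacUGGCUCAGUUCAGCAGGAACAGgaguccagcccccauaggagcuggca

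The remaining arms with a sequence were those of the miR-27 pair and miR-23b. The 5p arms of miR-27 have different seeds, unlike their 3p arms.

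miR-27a-5p: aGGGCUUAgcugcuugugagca
miR-27b-5p: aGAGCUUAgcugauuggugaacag
miR-23b-5p: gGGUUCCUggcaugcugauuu

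Each deposited value is a normalized count, a read count divided by a size factor of its library. To multiply back, the smallest value above 0 of each library was taken as 5 reads. On this assumption the libraries held 11115049 to 14313839 reads in sham and 8628309 to 11297551 in CCI-ION rats. By the same choice no library lists a value worth fewer than 5 reads except 0, and a listed 0 may stand for a few reads. Where 3 values are given for a group, they are those of replicates 1, 2 and 3 in this order. The most abundant miRNA, miR-7a-5p, took 16.8% to 24.4% of the reads in sham libraries and 7.90% to 13.5% in CCI-ION libraries.

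In sham rats the members took 1.07% ± 0.0506 of all reads (SD, n = 3), and miR-24-3p and miR-27b-3p together held 80.3% ± 1.29 of these (SD, n = 3). rno-miR-24-3p had the highest level, 52647 ± 362 normalized counts, followed by rno-miR-27b-3p with 50310.1 ± 293 (SD, n = 3 each). Although close, these levels did not overlap among the sham libraries. rno-miR-23b-3p followed with 12392 ± 1060.0, then miR-23a-3p with 5960.2 ± 973 and miR-27a-3p with 5692 ± 105 normalized counts (SD, n = 3 each). The difference between miR-23a-3p and miR-27a-3p lay within their spread. The 5p arms were far lower, with 771 ± 46.5 for miR-24-2-5p, 220.5 ± 19.8 for miR-24-1-5p, 119 ± 1.52 for miR-27b-5p, 98.1 ± 24.3 for miR-27a-5p and 39.6 ± 8.78 for miR-23b-5p (normalized counts, SD, n = 3 each). Of these, miR-27b-5p and miR-27a-5p were not separated by their spread. miR-23a-5p had 4.99 normalized counts (6 reads) in sham replicate 2 and was listed at 0 in the other 5 libraries, so no fold change is given for it. All these mature miRNAs measure 21 to 24 bases, so they are close in length. How evenly each sequence entered the libraries was not measured.

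By group means, the order of the abundant arms in CCI-ION rats was the same except that miR-27a-3p stood above miR-23a-3p in every library. Levels were 66087 ± 1263 for miR-24-3p and 62314 ± 10535 for miR-27b-3p (normalized counts, SD, n = 3 each), which overlapped. They were 12980.1 ± 1491 for miR-23b-3p and 11282 ± 2752 for miR-27a-3p, which also overlapped, and 6934 ± 1069 for miR-23a-3p (normalized counts, SD, n = 3 each). The members together took 1.55% ± 0.139 of all reads (SD, n = 3), above every sham library (exact permutation test, two-sided p = 0.1, the smallest that 3 libraries against 3 allow). These shares are relative to a total in which miR-7a-5p took less after CCI-ION.

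**Figure D1:**
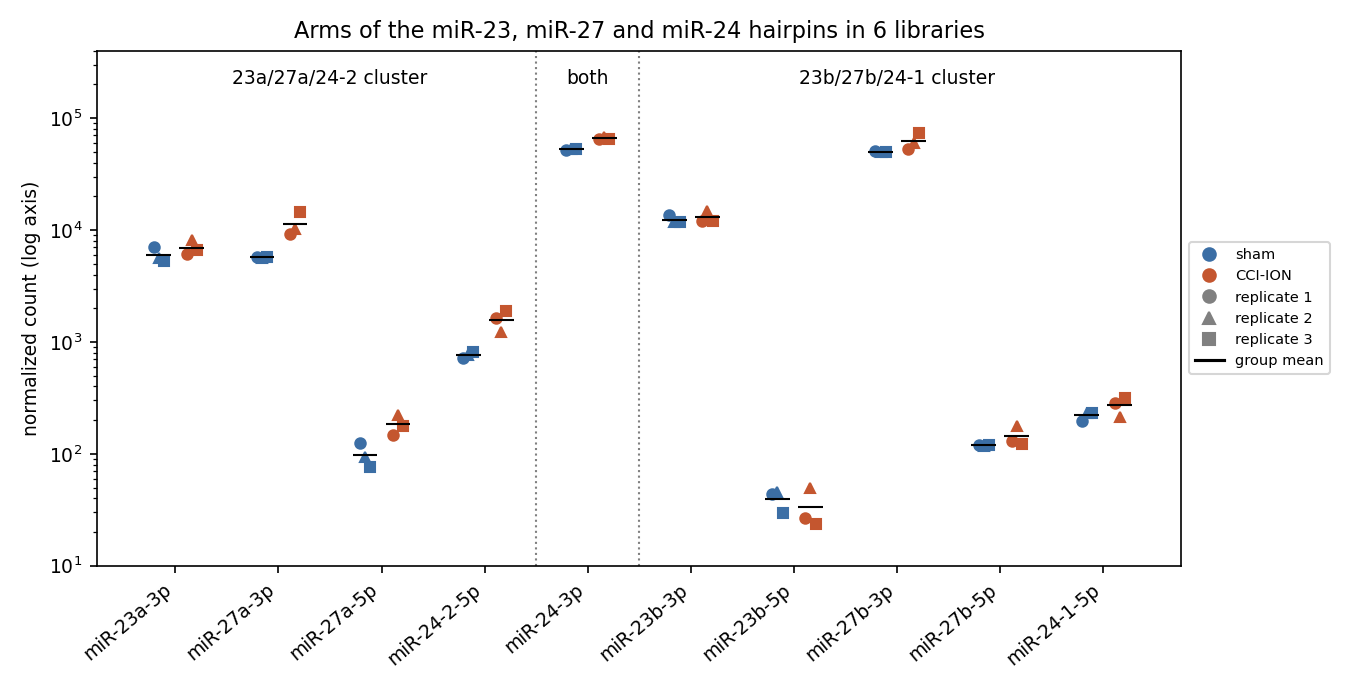
Normalized counts (log axis) of 10 arms of the miR-23, miR-27 and miR-24 hairpins in each of the 6 libraries, with circles, triangles and squares for replicates 1, 2 and 3 and a black line for each group mean. miR-27a-3p, miR-27a-5p and miR-24-2-5p lie higher in all CCI-ION libraries than in any sham library, whereas miR-23a-3p and miR-23b-3p overlap between the groups. miR-23a-5p, listed at 0 in 5 libraries, is not drawn.

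The comparison of CCI-ION with sham rats asked which members changed after nerve injury. miR-27a-3p and miR-24-2-5p, both from the 23a/27a/24-2 cluster, rose, to 1.98 and 2.05 times their sham means, and no arm that only the 23b/27b/24-1 cluster makes passed the test. The test was limma, two-sided, on the log2 of the normalized count plus 1, with Benjamini-Hochberg adjustment over all 555 miRNAs with a mean of at least 1 and a threshold of 0.05. Fold changes are on this log2 scale, which understates those of low miRNAs. Of the 10 members 9 were tested, since miR-23a-5p fell below the filter, and 2 of the 9 passed as higher, against 3.42% of all miRNAs tested. Without any 1 library, 0 or 1 of the 9 passed. All 9 had a log2 fold change above 0, against 48.8% of all miRNAs tested. miR-23b-5p, tested beside them, was below 0 (-0.28) with overlapping groups. Arms of a cluster are transcribed together, so these counts are not of independent miRNAs. Only 7 of the 9 were above 0 with upper-quartile scaling, where the median over all miRNAs was -0.26, and 8 without CCI-ION replicate 2. On the deposited scale the median of the 9 was 0.30, beside a median of -0.01 over all miRNAs. In 6 of the 9 all values after CCI-ION exceeded all sham values, which held for 19.5% of all miRNAs. An unadjusted p under 0.05 was found for 4 of the 9, and for 183 of the 555 miRNAs tested by limma. The tissue was measured in bulk, so fewer cells of a type and less RNA per cell cannot be told apart.

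In the 23a/27a/24-2 cluster, miR-27a-3p had 5798, 5589 and 5690.3 normalized counts in the sham libraries, against 9248, 10183 and 14413 after CCI-ION. The sham libraries lay within a narrow band, all CCI-ION libraries lay above it, and CCI-ION replicate 3 was the highest. The ratio of means was 1.98 and the log2 fold change 0.96 (standard error 0.19, adjusted p = 0.0450 from limma; exact permutation test, two-sided p = 0.1). The call was lost without sham replicate 1 (adjusted p = 0.115), 2 (0.144) or 3 (0.139) and without CCI-ION replicate 2 (0.0590) or 3 (0.0573), all from limma on 5 libraries, while the log2 fold change stayed between 0.77 and 1.09.

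miR-24-2-5p, the arm usually lost from the miR-24-2 hairpin, had 725, 770 and 818 normalized counts in the sham libraries. After CCI-ION the values were 1640.3, 1223 and 1876. The groups did not overlap, and CCI-ION replicate 2 was the lowest of its group. The ratio of means was 2.05 and the log2 fold change 1.01 (standard error 0.19, adjusted p = 0.0435 from limma). This call was lost without sham replicate 1 (adjusted p = 0.115), 2 (0.144) or 3 (0.115) and without CCI-ION replicate 1 (0.0800) or 3 (0.0940), all from limma, with log2 fold changes between 0.88 and 1.19.

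miR-27a-5p, the partner of miR-27a-3p, had 125, 93.1 and 76.7 normalized counts in the sham libraries (109, 112 and 91 reads). After CCI-ION the values were 149, 224 and 179 (160, 184 and 166 reads). Its groups did not overlap, and its log2 fold change was 0.91 (standard error 0.24), short of the threshold (adjusted p = 0.0827 from limma). It did pass with total-count scaling (adjusted p = 0.0412 from limma), with a pseudocount of 10 (0.0468) and with an intensity trend (0.0365).

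miR-23a-3p comes from the first hairpin of the same transcript. It had 7068, 5574 and 5239 normalized counts in the sham libraries, against 6070.1, 8129 and 6602 after CCI-ION. The groups overlapped, with sham replicate 1 above CCI-ION replicates 1 and 3. Its log2 fold change was 0.22 (95% interval -0.23 to 0.67, adjusted p = 0.423 from limma) and turned to -0.03 with upper-quartile scaling. This interval overlaps that of miR-27a-3p (0.49 to 1.43).

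miR-24-3p, which both clusters make, had 52339, 53046 and 52554 normalized counts in the sham libraries, against 65703, 67497 and 65060.1 after CCI-ION. Both groups were tight and did not overlap. The log2 fold change was 0.33 (standard error 0.10), short of the threshold (adjusted p = 0.0898 from limma). It passed with total-count scaling (log2 fold change 0.53, adjusted p = 0.0415) and with the intensity trend (0.33, adjusted p = 0.0445), and was 0.08 (adjusted p = 0.565) with upper-quartile scaling, all from limma.

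In the 23b/27b/24-1 cluster, miR-27b-3p had 50632, 50057 and 50242 normalized counts in the sham libraries, against 53336, 59693 and 73912 after CCI-ION. The groups did not overlap, although CCI-ION replicate 1 lay close to the sham libraries. The log2 fold change was 0.30 (95% interval -0.08 to 0.67, adjusted p = 0.216 from limma). Its partner miR-27b-5p had 117 to 120.002 normalized counts in sham libraries and 122 to 179 in CCI-ION libraries, with CCI-ION replicates 1 and 3 near the sham level (log2 fold change 0.25, 95% interval -0.18 to 0.68, adjusted p = 0.334 from limma).

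miR-23b-3p had 13615, 11814 and 11746 normalized counts in the sham libraries, against 12158, 14701 and 12082 after CCI-ION. The groups overlapped. Its log2 fold change was 0.06 (95% interval -0.27 to 0.40, adjusted p = 0.767 from limma), and its sign turned with upper-quartile scaling (-0.18) and without CCI-ION replicate 2 (-0.03). Its partner miR-23b-5p, at 22 to 55 reads per library, overlapped as well (log2 fold change -0.28, 95% interval -1.11 to 0.54, adjusted p = 0.564 from limma).

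miR-24-1-5p had 198, 234 and 230.1 normalized counts in the sham libraries, against 286, 216 and 315 after CCI-ION. CCI-ION replicate 2 lay among the sham libraries. The log2 fold change was 0.29 (95% interval -0.16 to 0.74, adjusted p = 0.298 from limma).

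**Figure D2:**
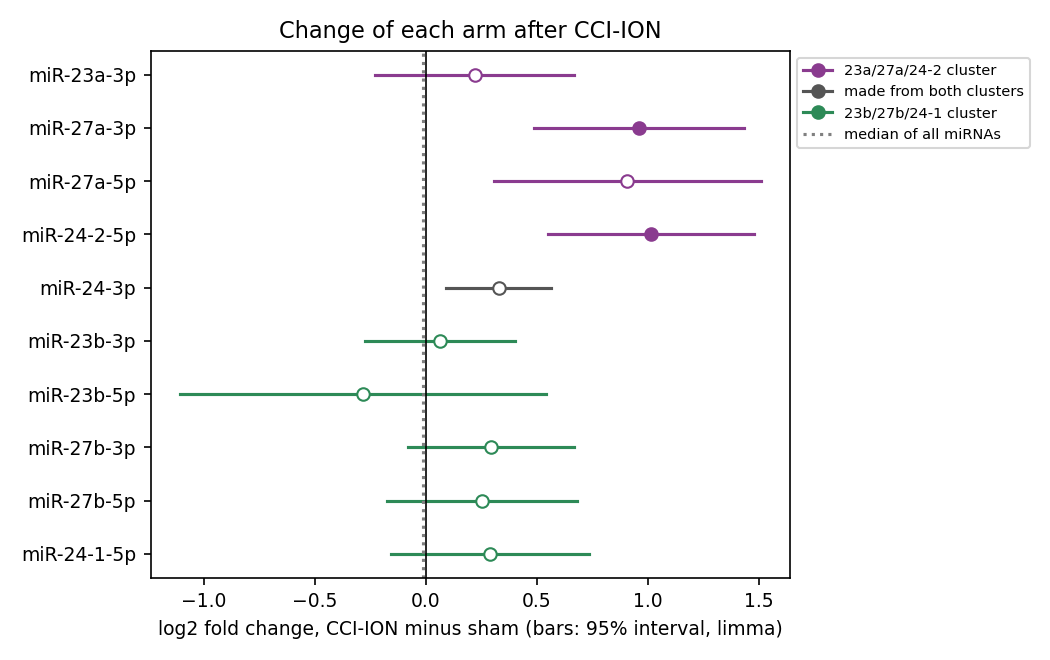
Log2 fold change (CCI-ION minus sham) of 10 arms with its 95% interval from limma, coloured by cluster, with filled points for arms past the threshold and a dotted line at the median of all miRNAs. miR-27a-3p (0.96) and miR-24-2-5p (1.01) are filled, miR-27a-5p (0.91) lies near them, and the intervals of all 5 arms of the 23b/27b/24-1 cluster include 0.

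The clusters were then compared through ratios within a library, which do not depend on how the library was scaled. The log2 ratio of miR-27a-3p to miR-27b-3p was -3.13, -3.16 and -3.14 in the sham libraries, against -2.53, -2.55 and -2.36 after CCI-ION. The sham values were almost the same, and every CCI-ION value was higher, by 0.66 on average (exact permutation test, two-sided p = 0.1, adjusted 0.15 over 3 pairs). As a share, miR-27a-3p made up 10.2% ± 0.116 of the reads of both miR-27 3p arms in the sham group (SD, n = 3) and 15.2% ± 0.954 in the CCI-ION group (SD, n = 3).

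The log2 ratio of miR-24-2-5p to miR-24-1-5p was 1.87, 1.72 and 1.82 in the sham libraries, against 2.52, 2.50 and 2.57 after CCI-ION. Both groups were tight and separate, with a difference of 0.73 (exact permutation test, two-sided p = 0.1, adjusted 0.15). miR-24-2-5p held 77.8% ± 0.950 of the reads of both miR-24 5p arms in the sham group (SD, n = 3) and 85.3% ± 0.309 in the CCI-ION group (SD, n = 3).

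The log2 ratio of miR-23a-3p to miR-23b-3p was -0.95, -1.08 and -1.16 in the sham libraries, against -1.002, -0.85 and -0.87 after CCI-ION. These values overlapped and differed by 0.16 (exact permutation test, two-sided p = 0.2, adjusted 0.2). miR-23a-3p held 32.4% ± 1.68 of the reads of both miR-23 3p arms in the sham group (SD, n = 3) and 34.7% ± 1.26 in the CCI-ION group (SD, n = 3). With 3 libraries a group, this exact test could not pass the threshold for any of the 3 pairs. Leaving out any library kept the differences between 0.60 and 0.70 for miR-27, between 0.68 and 0.76 for the miR-24 5p arms and between 0.11 and 0.21 for miR-23.

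**Figure D3:**
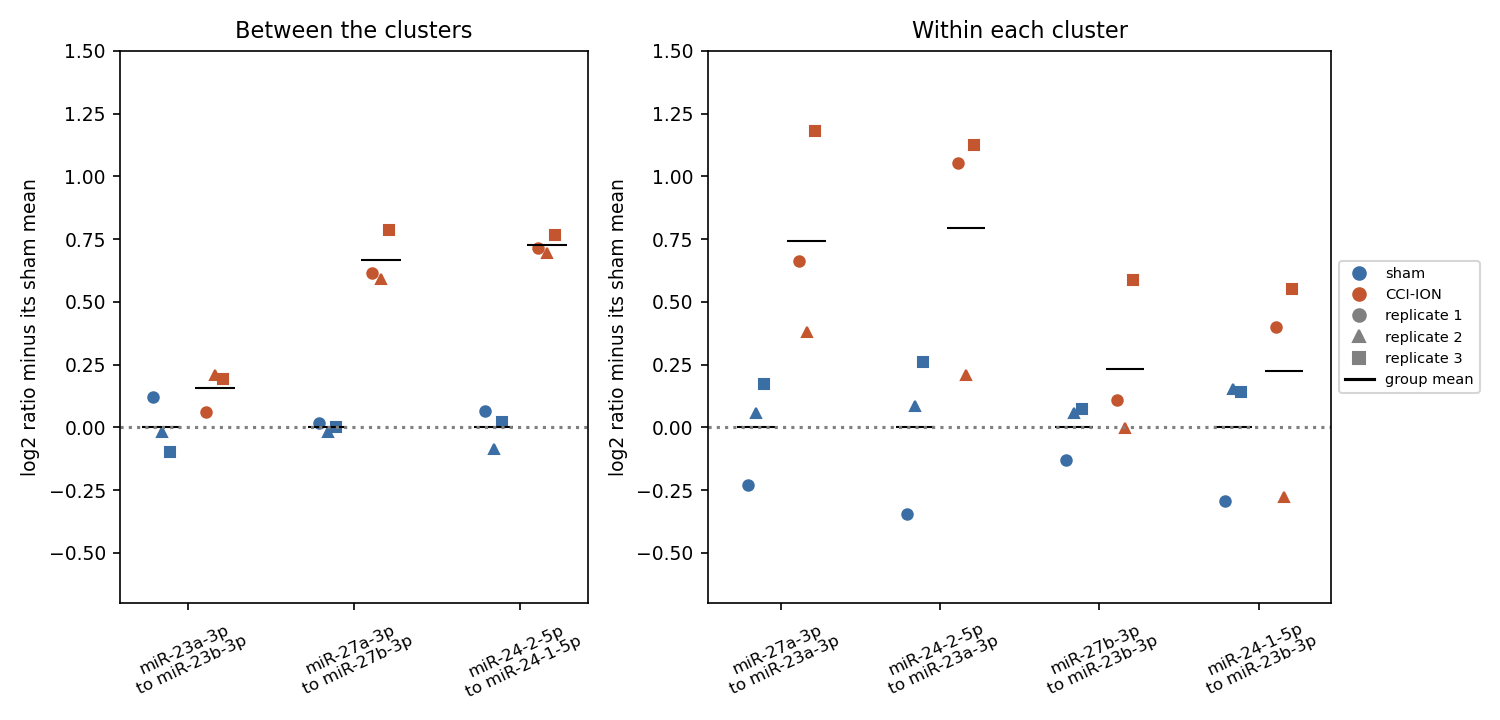
Log2 ratios of 2 miRNAs in the same library, drawn as the difference from the sham mean of that ratio, for 3 pairs between the clusters (left) and 4 pairs within a cluster (right). Symbols mark replicates and black lines the group means. The ratios of miR-27a-3p to miR-27b-3p and of miR-24-2-5p to miR-24-1-5p separate the groups by 0.66 and 0.73, while that of miR-23a-3p to miR-23b-3p overlaps.

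Ratios within a cluster were compared after the fold changes had been seen. In the 23a/27a/24-2 cluster, the log2 ratio of miR-27a-3p to miR-23a-3p was -0.29, 0.00 and 0.12 in the sham libraries, against 0.61, 0.33 and 1.13 after CCI-ION. The groups did not overlap and differed by 0.74 (exact permutation test, two-sided p = 0.1, adjusted 0.4 over 4 pairs). Without CCI-ION replicate 3 this difference was 0.52. The ratio of miR-24-2-5p to miR-23a-3p differed by 0.79 with overlapping groups (p = 0.2, adjusted 0.4, exact permutation test). In the 23b/27b/24-1 cluster the corresponding differences were 0.23 for miR-27b-3p to miR-23b-3p and 0.22 for miR-24-1-5p to miR-23b-3p, with overlapping groups in both (p = 0.4 and 0.5, each adjusted 0.5, exact permutation tests). Single libraries moved these differences: without CCI-ION replicate 3 they were 0.053 and 0.061, and without CCI-ION replicate 2 they were 0.35 and 0.48. For miR-24-1-5p to miR-23b-3p, leaving out sham replicate 1 gave 0.079, and leaving out CCI-ION replicate 1 gave 0.14. The sham values of these ratios spread more than those between the clusters.

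The arms of a hairpin were compared through the log2 ratio of 5p to 3p, tested with limma over 192 pairs of arms. None of the 5 pairs of these hairpins passed the threshold, against 10.4% of all pairs (20 of 192 by limma), and 1 of the 5 had an unadjusted p under 0.05, as did 63 of the 192. That pair was miR-24-2-5p with miR-24-3p, whose ratio was -6.17, -6.10 and -6.00 in the sham libraries, against -5.32, -5.79 and -5.12 after CCI-ION. Every CCI-ION value was higher, by 0.69 (standard error 0.21, adjusted p = 0.0940 from limma), and without CCI-ION replicate 2 the difference was 0.87 and passed (adjusted p = 0.0273). Since miR-24-3p also comes from miR-24-1, this ratio does not describe 1 hairpin alone. The ratio of miR-24-1-5p to miR-24-3p differed by -0.04 (95% interval -0.54 to 0.46). For miR-27a the difference was -0.05 (95% interval -0.77 to 0.66, adjusted p = 0.939 from limma), and the 5p arm held 1.69% ± 0.389 of their reads in the sham group (SD, n = 3) and 1.65% ± 0.468 in the CCI-ION group (SD, n = 3). For miR-27b the difference was -0.04 (95% interval -0.65 to 0.57) and for miR-23b -0.35 (95% interval -1.03 to 0.33).

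The scale of the libraries moved these changes as a block. Over all miRNAs the median log2 fold change became 0.17 with total-count scaling and -0.26 with upper-quartile scaling. The values of miR-27a-3p (1.16 and 0.71) and miR-24-2-5p (1.22 and 0.77) stayed above that median under both. With upper-quartile scaling neither passed the threshold (adjusted p = 0.0541 and 0.0559 from limma), and no other member did, while 3 members had an unadjusted p under 0.05, as did 205 of all 555 miRNAs. With total counts 4 members passed, as miR-27a-5p and miR-24-3p were added, while 42 of all 555 miRNAs passed as higher. Among the miRNAs called, 50% were higher with the deposited scale, 82.4% with total counts and 10.6% with upper quartiles.

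**Figure D4:**
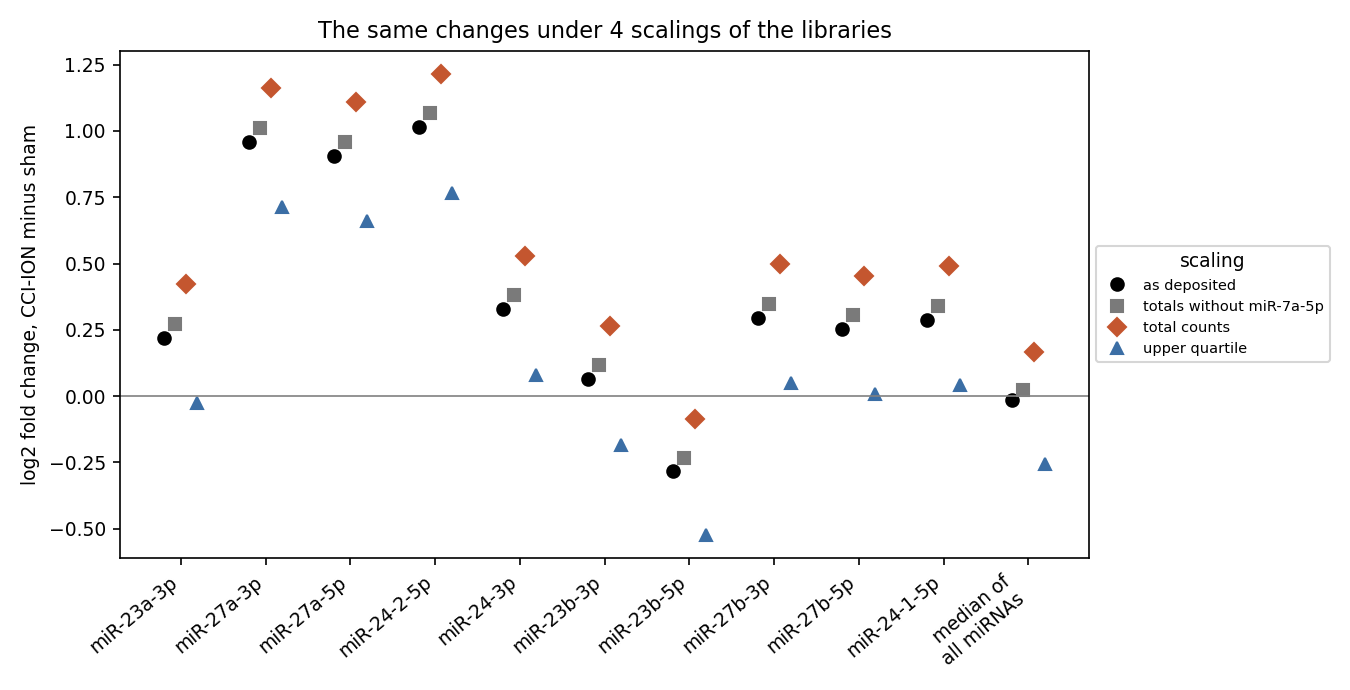
Log2 fold change (CCI-ION minus sham) of 10 arms and the median of all miRNAs under 4 scalings of the libraries, 1 symbol per scaling. miR-27a-3p, miR-27a-5p and miR-24-2-5p stay above the other arms under each scaling, and miR-23a-3p (-0.03) and miR-23b-3p (-0.18) fall below 0 with upper quartiles.

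A related miRNA was found by sequence. Bases 2 to 8 of miR-128-3p, a neuronal miRNA, equal bases 3 to 9 of miR-27a-3p and miR-27b-3p, so the shared stretch CACAGUG sits 1 base further in on miR-27.

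miR-128-3p: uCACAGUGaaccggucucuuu

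miR-128-3p was far more abundant than both miR-27 3p arms, at 388089, 474451 and 611164 normalized counts in the sham libraries, against 273766, 279234 and 221285 after CCI-ION. Its groups did not overlap, with all CCI-ION libraries lower (log2 fold change -0.91, standard error 0.21, adjusted p = 0.0597 from limma, not past the threshold). miR-222-5p, at 11.2 ± 3.84 normalized counts in the sham group and 11.4 ± 1.87 after CCI-ION (SD, n = 3 each), has the same relation to miR-24-3p. Sequences were matched by name for 512 of the 562 miRNAs, and among these no miRNA outside the hairpins shared the seed of any of the 10 arms with a sequence.

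Lists of miRNAs typical of other cell types were summed in each library, and their counts at an unadjusted p under 0.05 stand beside 183 of 555 over all miRNAs. Their counts past the threshold stand beside 19 of 555 as higher and 19 of 555 as lower. The vessel wall list (miR-143 and miR-145 arms) summed to 35489 to 51879 normalized counts in sham and 82454 to 97636 in CCI-ION libraries, with 2 of 4 past the threshold as higher, the same number at an unadjusted p under 0.05 and a median log2 fold change of 0.77. In this list the log2 fold change of miR-143-3p was 1.11 (limma, adjusted p = 0.0334). Endothelial miR-126a-3p had 44395 to 53916 normalized counts in sham and 62453 to 70573 in CCI-ION libraries (log2 fold change 0.44, limma adjusted p = 0.0877). Its partner miR-126a-5p went the other way, with 644 to 1047 in sham and 237 to 643 in CCI-ION libraries (log2 fold change -0.91, limma adjusted p = 0.205). The endothelial list of 2 arms summed to 45442 to 54854 and 63095 to 70810.3, with none past the threshold, 1 at an unadjusted p under 0.05 and a median of -0.23. The neuronal list summed to 2092328 to 2275253 in sham and 1646185 to 2054651 in CCI-ION libraries, with 1 of 15 past the threshold as lower, 8 at an unadjusted p under 0.05 and a median of -0.45. Of these 8, miR-129-5p was higher after CCI-ION (log2 fold change 0.45, limma adjusted p = 0.0762) and the others were lower. The neuronal sum is dominated by miR-9a-5p (log2 fold change -0.17, limma adjusted p = 0.423). The oligodendrocyte list summed to 13797 to 19992 and 10568 to 11402, with 1 of 6 past the threshold as lower, 3 at an unadjusted p under 0.05 and a median of -0.92. This median is lowered by miR-219a-5p (log2 fold change -2.28) and miR-219b (-2.17), which lay near the floor. In the same list miR-219a-1-3p went the other way (log2 fold change 0.58, limma adjusted p = 0.238). The pituitary list, which miR-7a-5p dominates, summed to 2113680 to 3408407 and 944164 to 1552852, with none of 5 past the threshold, 3 at an unadjusted p under 0.05 and a median of -0.29. Of these 3, miR-375-3p went against the sum and was higher after CCI-ION (log2 fold change 0.58, limma adjusted p = 0.137). miR-7 is also known from the hypothalamus itself. None passed by limma in the lists for red blood cells (1 of 3 at an unadjusted p under 0.05, median -0.08), microglia and other immune cells (3 of 9, median 0.02) and choroid plexus and ependyma (1 of 8, median 0.22), whose sums overlapped between the groups. The part of these differences in the changes of miR-27a-3p and miR-24-2-5p was not tested.

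Finally, the miRNAs most like each cluster were listed by Pearson's r over the 6 libraries, among 354 miRNAs with a mean of at least 100. For the mean log2 level of miR-23a-3p and miR-27a-3p they were miR-200a-5p (r = 0.980), miR-152-3p (0.978) and miR-148a-3p (0.972). By limma, the log2 fold change was 0.61 for miR-152-3p (adjusted p = 0.0450), 1.42 for miR-148a-3p (adjusted p = 0.0190) and 1.54 for miR-200a-5p (adjusted p = 0.0779). For miR-23b-3p and miR-27b-3p they were miR-200a-3p (0.995), miR-339-3p (0.993) and miR-96-5p (0.981), none of them past the threshold (adjusted p from 0.141 to 0.271, limma). These values share libraries and a scale, and they describe 6 points only. The miRNAs were picked by likeness to a profile over the same libraries. A change like that of the profile therefore follows from the choice and is no separate support.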

How the data were processed

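Small RNA of the ARC was sequenced in 3 sham and 3 CCI-ION libraries, grouped by the labels. The authors deposited 1 signal value per mature miRNA and library, a read count over a size factor. This was worked out from the values, all of which were whole multiples (within 0.001 of a read) of a step taken as the smallest value above 0 divided by 5. The submitters' processing notes name Bowtie 1.1.1, cutadapt 1.14 and rn6; counting, annotation and normalization are not given in the sources used here. Reference sequences are from another build (GRCr8), and its coordinates belong to them only.

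limma 3.58.1 (R 4.3.3) was run on log2(normalized count + 1) over all miRNAs with a mean of at least 1, without covariates. Ratios were compared with exact permutation tests (scipy 1.17.1). Between replicates, read counts differed beyond sampling noise, so each library counts as 1 sample. Named miRNAs were the members, miRNAs related by seed, the 3 most like each cluster (Pearson's r, mean of at least 100) and the cell type lists. Members, lists and tests were chosen with earlier results of these data known. Alternatives were other scalings, filters (none, a mean of at least 10), pseudocounts of 0.1 and 10, an intensity trend, a replicate block and leaving out each library. Shares are of listed reads, and depth limits miRNAs near 5 reads.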

Additional observations from a re-analysis of the deposited data

How the results depend on the processing

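The number of miRNAs past the threshold (38) was 51 with total counts, 94 with upper quartiles and 63 with a mean of at least 10. It was 34 with a pseudocount of 0.1, 62 with a pseudocount of 10 and 88 with an intensity trend. The number of members past the threshold (2) was 4 with total counts, 0 with upper quartiles, 1 with a pseudocount of 0.1, which left out miR-27a-3p (adjusted p = 0.0533 from limma), and 4 with the intensity trend. With a pseudocount of 10 it was 3, as miR-27a-5p was added. The number of pairs with a changed arm ratio (20) was 31 with a pseudocount of 10. Leaving out each library in turn gave 7 to 43 miRNAs, 0 to 1 members and 3 to 22 arm pairs.

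With the replicate block 3 miRNAs, 0 members and 0 arm pairs passed by limma, and 154, 3 and 59 had an unadjusted p under 0.05; miR-27a-3p (adjusted p = 0.114 from limma) and miR-24-2-5p (adjusted p = 0.103) kept their fold changes. Deviations of same-numbered libraries correlated at -0.03, 0.19 and -0.01, which gives no pairing by number.

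The sign turned for miR-23a-3p (-0.028) and miR-23b-3p (-0.18) with upper quartiles and for miR-23b-3p without CCI-ION replicate 2 (-0.029; 0.13 at most without another library). With 1 library left out, arm ratios spanned 0 for miR-27a (-0.26 to 0.15, above 0 without sham replicate 1, at 0.12, or CCI-ION replicate 3), miR-27b (-0.23 to 0.20, above 0 without CCI-ION replicate 3) and miR-24-1-5p (-0.17 to 0.13, above 0 without CCI-ION replicate 2). None of these passed the threshold. The ratios between the clusters kept their direction in all 8 alternatives. The planned edgeR and DESeq2 fits were not run: the deposited values are normalized, and the reads behind them were worked out only by assuming a smallest value of 5 reads. The cause was not tested for any of these shifts, and some alternatives also hold fewer libraries or miRNAs.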
